A study of Mus musculus with 6 samples.

Results

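The adventitial fibroblast genes described here are 9 genes, Pdgfra, Ly6a, Scara5, Dpep1, Dpt, Pi16, Clec3b, Serpinf1 and Gsn, taken by name from 27815 gene identifiers measured in mouse aorta. All 9 passed the filter on low values and were among the 14074 genes tested. Polyadenylated RNA of the aorta was sequenced in 6 libraries, 2 in each of 3 groups of C57BL/6 background. The control group (Ctrl) was wild type, with an age label of 2 months. The ApoE group carried the ApoE-/- genotype, which removes apolipoprotein E and leads to plaques, and was kept on chow to 16 months. In the CKD group, a model of chronic kidney disease, the poles of a kidney were removed at 8 weeks of age and the other kidney was removed after 1 week of recovery. These mice then received 2% phosphate in the diet and 0.45% NaCl in the water for 4 weeks. For these libraries the labels give an age of 16 months, at odds with that timeline, and the age of the CKD group is uncertain.

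Genotype and age differ together between ApoE and Ctrl and cannot be told apart. Surgery, phosphate diet and NaCl water came together in CKD and cannot be told apart in its comparisons with Ctrl or ApoE. By the labels, CKD and Ctrl also differ in age, at 16 and 2 months, which cannot be told apart from the treatment either. Between ApoE and CKD the ApoE-/- genotype, and perhaps age, differ as well. Nothing in the labels tells whether the 2 libraries of a group came from different mice, and pooling, of 4 samples for the miRNA work, is mentioned in the protocol. SDs and p-values therefore cover library-to-library spread only, and part of it may be technical. The targeted gene, Apoe, read 756.4 and 627.4 FPKM in Ctrl, 13.21 and 11.39 in ApoE, and 1410 and 1447 in CKD. FPKM counts the reads of a gene per kilobase of its exons and per unit of library depth. The libraries held 14.44 to 16.64 M reads, and mitochondrial genes took 3.36% to 4.49% of the reads in Ctrl, 10.4% to 11.81% in ApoE and 6.12% to 10.7% in CKD.

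The adventitia is the outer coat of an artery, and its main stromal cells are fibroblasts that lay down and turn over collagen-rich matrix. These cells carry the receptor for platelet-derived growth factor (PDGF) encoded by Pdgfra, and a subset with Pi16, Dpt and Ly6a is regarded as a reserve from which other fibroblasts arise. In disease, fibroblasts can switch from this resting state towards matrix-building or cytokine-producing states. The 9 genes are not private to the adventitia. Fibroblasts of the fat around the vessel use most of them, endothelial and blood cells also make Ly6a, and smooth muscle also makes Gsn. In whole-aorta RNA, fewer cells of a type and less RNA per cell cannot be told apart.

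A separate list of 24 other fibroblast markers summed to 1701 and 1993 FPKM in Ctrl, 820.8 and 1253 in ApoE, and 1398 and 1899 in CKD. A member received 759 to 65917 reads in a library. Exons of Pdgfra overlap Gm42802, Gm42803 and Mir7025, and exons of Pi16 overlap a gene on the other strand. Since the library preparation was unstranded, the values of these 2 genes are uncertain to that extent. Ly6a has close relatives in its gene cluster between which a counter could split reads, and its value is uncertain for that reason.

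RefSeq promoter entries were found for 6 of the 9 genes, Pdgfra, Dpt, Pi16, Dpep1, Gsn and Serpinf1, but not for Ly6a, Clec3b and Scara5. The 250 bases before a start are shown for Gsn, the most abundant of the 9 and low in ApoE, at the first and the third of its 3 listed starts, and for Dpep1, the member with the largest CKD to Ctrl ratio. Coordinates are on GRCm38.p6, all on the plus strand, and none of these windows overlaps a GENCODE M21 exon. Capitals mark the motifs described after the sequences.

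Gsn, the first start, chr2:35256109-35256358: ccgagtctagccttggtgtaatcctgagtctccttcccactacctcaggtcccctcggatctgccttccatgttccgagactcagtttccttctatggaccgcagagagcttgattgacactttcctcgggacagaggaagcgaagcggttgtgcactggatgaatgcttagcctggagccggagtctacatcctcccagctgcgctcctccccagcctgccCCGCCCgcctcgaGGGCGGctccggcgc
Gsn, the third start, chr2:35282130-35282379: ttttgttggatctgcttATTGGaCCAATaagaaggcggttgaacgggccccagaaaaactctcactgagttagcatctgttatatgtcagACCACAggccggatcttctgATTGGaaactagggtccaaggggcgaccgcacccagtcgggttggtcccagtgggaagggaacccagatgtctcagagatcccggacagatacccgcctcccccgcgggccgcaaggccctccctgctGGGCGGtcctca
Dpep1, chr8:123185985-123186234: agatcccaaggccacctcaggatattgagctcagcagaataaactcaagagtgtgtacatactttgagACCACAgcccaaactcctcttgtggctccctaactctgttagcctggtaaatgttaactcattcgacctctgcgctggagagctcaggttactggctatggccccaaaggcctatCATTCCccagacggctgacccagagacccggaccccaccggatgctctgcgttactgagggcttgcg

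On both strands 8 motifs were searched, and overlapping matches were kept. They were the TATA box (TATAAA), the CCAAT box (CCAAT), the GC box (GGGCGG), AP-1 (TGANTCA), GAS (TTCNNNGAA), the ISRE core, RUNX (TGTGGT) and TEAD (CATTCC). The RUNX letters were found in 4 of the 6 matched genes, Dpt, Dpep1, Gsn and Serpinf1, against 14.0% of 32851 mouse promoter windows of the same length. CCAAT stood in 3 of the 6, Pi16, Gsn and Serpinf1, against 33.8% of all windows. The Pi16 window lies wholly within annotated GENCODE exons and 221 of the 250 bases of the Serpinf1 window do. The last 19 bases of the Dpt window also do, and its RUNX letters, 9 bases before the start, fall among them. Dpep1 held the RUNX letters 182 bases before its start and alone of the 6 had the TEAD letters, 67 bases before the start, found in 12.6% of all windows. The third start of Gsn held CCAAT at 3 places and the GC box letters 12 bases before the start. None of the 6 held TATAAA, which stood in 12.4% of all windows. Gsn has 3 windows and so more chances of a match, and a match describes letters and is not evidence of a factor's binding.

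Pdgfra (ENSMUSG00000029231, GRCm38 chr5:75152292-75198215, plus strand) encodes the receptor tyrosine kinase for PDGF that marks fibroblasts, and was the least abundant member. Its level was 14.54 and 13.63 FPKM in Ctrl, 12.68 and 5.093 in ApoE and 16.31 and 19.69 in CKD. The libraries of the 3 groups did not overlap, but the 2 ApoE libraries lay further apart than the ApoE and Ctrl means. The difference between ApoE and Ctrl was -0.72 on the log2(FPKM + 1) scale (SE 0.37, 95% interval -1.62 to 0.17) and did not pass the test (limma, Benjamini-Hochberg adjusted p = 0.157). It rested on which ApoE library was kept, at -1.31 without ApoE 1 (adjusted p = 0.0104) and -0.14 without ApoE 2 (adjusted p = 0.585). CKD differed from Ctrl by 0.33 (SE 0.37, limma adjusted p = 0.578).

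Ly6a (ENSMUSG00000075602, chr15:74994877-74998031, minus strand) encodes Sca-1, a lipid-anchored surface protein of stem and progenitor cells. Ly6a read 142.4 and 135.5 FPKM in Ctrl, 394.4 and 191.4 in ApoE and 115.8 and 165.2 in CKD. It was the only member whose ApoE libraries were both above the Ctrl libraries, with ApoE 1 far above ApoE 2. The ApoE to Ctrl difference was 0.98 (SE 0.37, 95% interval 0.07 to 1.89) and missed the threshold (limma adjusted p = 0.0764). Without ApoE 2 it was 1.50 and passed (limma adjusted p = 0.0278), and without ApoE 1 it was 0.46 (adjusted p = 0.269). In CKD the Ly6a mean of 140.5 ± 34.9 FPKM (SD, n = 2) lay beside 139 ± 4.86 in Ctrl, and the 95% interval of that difference ran from -0.91 to 0.9.

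Scara5 (ENSMUSG00000022032, chr14:65666403-65764826, plus strand) encodes a class A scavenger receptor that takes up ferritin. Its level was 67.04 and 55.31 FPKM in Ctrl, 29.09 and 13.81 in ApoE and 46.4 and 72.89 in CKD. Both ApoE libraries lay below all others, while the CKD libraries stood on either side of Ctrl. Scara5 fell in ApoE by 1.55 on the log2 scale (SE 0.38, limma adjusted p = 0.0216). The call was lost without Ctrl 1 (adjusted p = 0.101), Ctrl 2 (0.0631) or ApoE 2 (0.0856).

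Dpep1 (ENSMUSG00000019278, chr8:123186242-123201812, plus strand) encodes a membrane dipeptidase that splits dipeptides and converts leukotriene D4. Dpep1 read 101.9 and 76.19 FPKM in Ctrl, 66.53 and 28.79 in ApoE and 228.5 and 278.6 in CKD. The groups did not overlap, and both CKD libraries were above every other library. The CKD mean of 253.5 ± 35.4 FPKM was 2.85-fold the Ctrl mean of 89.04 ± 18.2 (SD, n = 2 each). On the log2 scale the difference was 1.51 (SE 0.40, 95% interval 0.52 to 2.49), which missed the threshold (limma unadjusted p = 0.00964, adjusted p = 0.0784). In ApoE the Dpep1 difference from Ctrl was -0.99 (SE 0.40, limma adjusted p = 0.0915), without ApoE 1 it was -1.58 and passed (adjusted p = 0.0195), and without ApoE 2 it was -0.40 (adjusted p = 0.335).

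Dpt (ENSMUSG00000026574, chr1:164796644-164824266, plus strand) encodes dermatopontin, a small matrix protein that binds decorin and collagen fibrils. It stood at 359.9 and 325.4 FPKM in Ctrl, 181.7 and 110.1 in ApoE and 192.7 and 329 in CKD. The ApoE libraries were the 2 lowest, but CKD 1 was close to ApoE 1 and CKD 2 was within the Ctrl range. Dpt fell in ApoE by 1.27 (SE 0.34, limma adjusted p = 0.0295), a call lost without Ctrl 1 (adjusted p = 0.132), Ctrl 2 (0.0959) or ApoE 2 (0.148).

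Pi16 (ENSMUSG00000024011, chr17:29317680-29330593, plus strand) encodes peptidase inhibitor 16, a mark of fibroblasts found around vessels of many organs. Pi16 was at 240.7 and 240 FPKM in Ctrl, 96.93 and 49.58 in ApoE and 132.9 and 145.1 in CKD. The 3 groups did not overlap, with Ctrl highest and ApoE lowest. Pi16 fell in ApoE by 1.78 (SE 0.31, limma adjusted p = 0.00724). The CKD difference from Ctrl was -0.79 (SE 0.31, 95% interval -1.56 to -0.01) and did not pass (limma unadjusted p = 0.0475, adjusted p = 0.163).

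Clec3b (ENSMUSG00000025784, chr9:123150946-123157432, plus strand) encodes tetranectin, a secreted lectin-like protein that binds plasminogen. Its values were 476.4 and 383.4 FPKM in Ctrl, 268.1 and 137.9 in ApoE and 250.3 and 309.1 in CKD. Every ApoE and CKD library was below both Ctrl libraries, and the ApoE and CKD libraries overlapped. Clec3b fell in ApoE by 1.15 (SE 0.34, limma adjusted p = 0.0396), a call lost without Ctrl 1 (adjusted p = 0.182), Ctrl 2 (0.0966) or ApoE 2 (0.143). In CKD it differed from Ctrl by -0.62 (SE 0.34, limma adjusted p = 0.277).

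Serpinf1 (ENSMUSG00000000753, chr11:75409769-75422701, minus strand) encodes pigment epithelium-derived factor, a secreted serpin that restrains vessel growth. Serpinf1 read 266.5 and 205.1 FPKM in Ctrl, 68.41 and 41.06 in ApoE and 128.3 and 207.4 in CKD. The ApoE libraries were far below the rest, and the CKD and Ctrl libraries overlapped. Its fall in ApoE, by 2.12 on the log2 scale (SE 0.34, limma adjusted p = 0.0053), was the largest of the 9. The ApoE mean of 54.74 ± 19.3 FPKM compares with 235.8 ± 43.4 in Ctrl (SD, n = 2 each).

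Gsn (ENSMUSG00000026879, chr2:35256380-35307892, plus strand) encodes gelsolin, which cuts actin filaments when calcium rises and also has a secreted form. Gsn stood at 1255 and 1171 FPKM in Ctrl, 508.4 and 473.3 in ApoE and 1202 and 1401 in CKD. The ApoE libraries lay close together and far below every other library, and the CKD libraries stood on either side of Ctrl 1. Gsn fell in ApoE by 1.30 (SE 0.19, limma adjusted p = 0.00372). In CKD the difference from Ctrl was 0.10, with a 95% interval of -0.37 to 0.57 (limma adjusted p = 0.759).

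**Figure D1:**
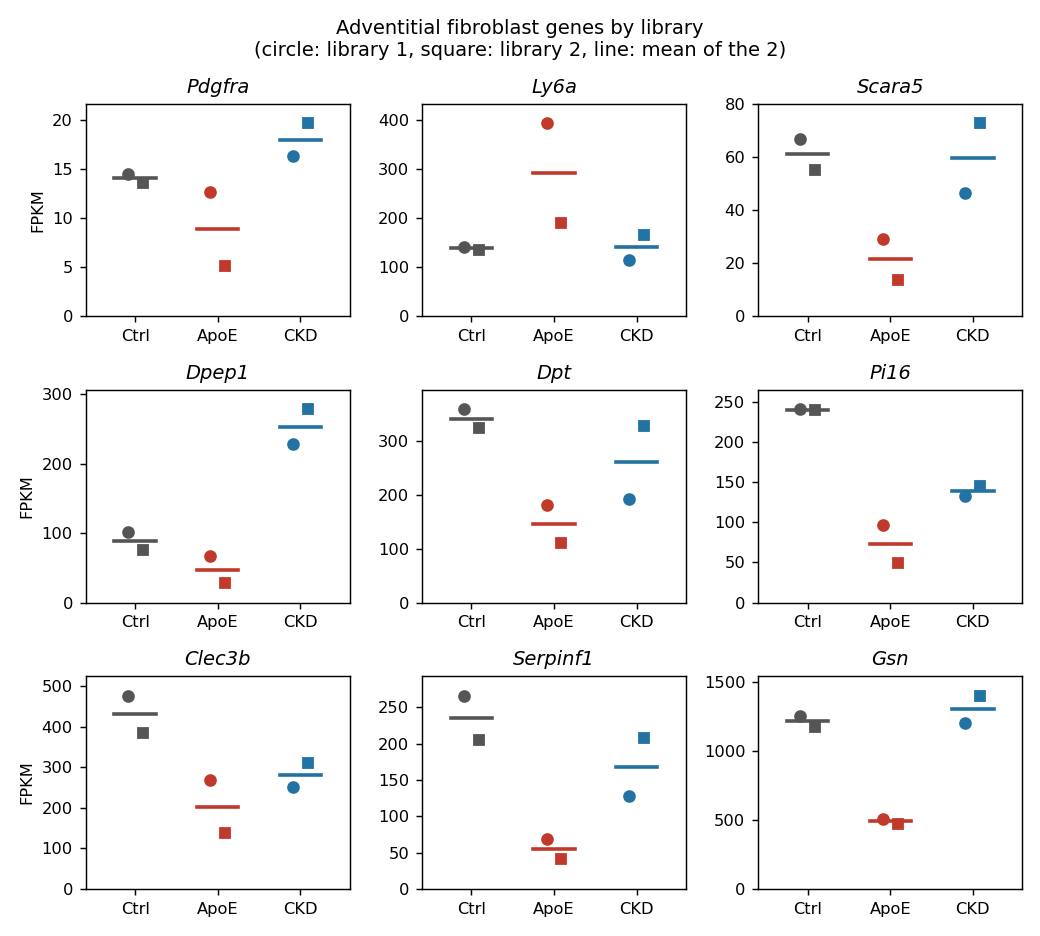
Level of each of the 9 genes in FPKM (vertical axes, each from 0) in the 6 libraries, grouped as Ctrl, ApoE and CKD. Circles and squares are libraries 1 and 2 of a group and lines are the means of both. The ApoE libraries are below both Ctrl libraries for every gene but Ly6a, and Dpep1 is highest in CKD, at 228.5 and 278.6 FPKM.

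ApoE was compared with Ctrl to see how the fibroblast genes stood in aortas with plaques of old ApoE-/- mice. Of the 9 genes 6 fell, Serpinf1, Pi16, Scara5, Gsn, Dpt and Clec3b, and 0 rose (limma, Benjamini-Hochberg adjusted p below 0.05). Across all 14074 genes 44.1% were called in this comparison, 24.3% as lower and 19.8% as higher. An unadjusted p below 0.05 was reached by 8 of the 9, beside 53.6% of all genes. The median difference of the 9 was -1.27, beside -0.07 over all genes tested. For 8 of the 9 the ApoE libraries were both below the Ctrl libraries, as they were for 43% of all genes, and for Ly6a both were above, as for 36.4%.

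CKD was compared with Ctrl for the same genes in aortas with calcification of the media. None of the 9 passed the test (limma adjusted p below 0.05), 2 of 9 had an unadjusted p below 0.05, and limma without the variance trend and robust spread also called 0. The share called over all genes was 5.44%, with 2.23% higher and 3.21% lower, and 30% had an unadjusted p below 0.05. The 2 genes below the unadjusted threshold lay in opposite directions, Dpep1 at 1.51 and Pi16 at -0.79. The median of the 9 was -0.06, beside -0.03 over all genes tested. Pdgfra and Dpep1 were higher in both CKD libraries than in both Ctrl libraries, as were 29.1% of all genes, and Pi16 and Clec3b were lower in both, as were 35.1%.

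Set directly against CKD, ApoE was lower in Dpep1, Serpinf1, Scara5 and Gsn, 4 of the 9, and higher in 0, where 39.7% of all genes were called, 21.2% as lower and 18.5% as higher. An unadjusted p below 0.05 was reached by 7 of the 9, beside 50.1% of all genes. The ApoE libraries were both below the CKD libraries for 7 of the 9 and both above for Ly6a, as they were for 38% and 33% of all genes. The ApoE and CKD comparisons share the Ctrl libraries, so this direct contrast is the test of whether they differ. Dpep1 was lower by 2.50 on the log2 scale (SE 0.40, limma adjusted p = 0.00614), a ratio of 5.32 between the CKD and ApoE means. Gsn differed by -1.40 (SE 0.19, adjusted p = 0.00374), Serpinf1 by -1.60 (SE 0.34, adjusted p = 0.0152) and Scara5 by -1.49 (SE 0.38, adjusted p = 0.0269), all by limma. Without CKD 2 only Dpep1 and Gsn were called, and without ApoE 2 the calls were Dpep1 and Gsn as lower and Ly6a as higher, at 1.50 (adjusted p = 0.0338). Pi16 lay close to the threshold, at -0.99 (SE 0.31, limma adjusted p = 0.0513). Pdgfra, at -1.05 (adjusted p = 0.0658), Ly6a, at 0.98 (adjusted p = 0.0807), and Dpt, at -0.83 (adjusted p = 0.106), did not pass limma's test. For Clec3b, at -0.53 with a 95% interval of -1.37 to 0.31, ApoE and CKD libraries overlapped.

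**Figure D2:**
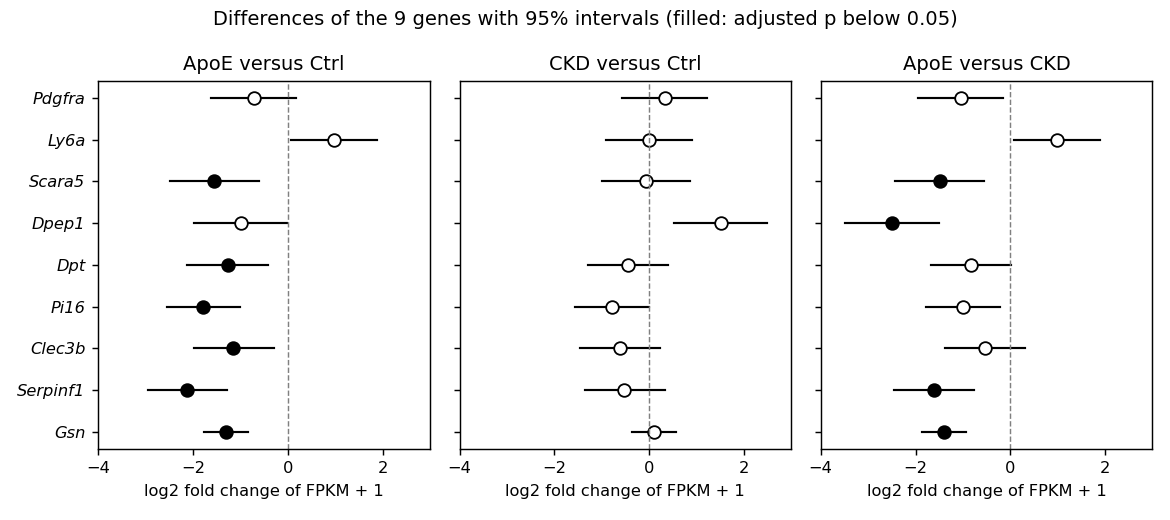
Difference of each gene on the log2(FPKM + 1) scale (horizontal axes) in the 3 comparisons, with 95% intervals from limma. Filled points have an adjusted p below 0.05. The 6 filled points for ApoE versus Ctrl are all to the left of 0, there are 0 for CKD versus Ctrl, and the 4 for ApoE versus CKD are led by Dpep1 at -2.50.

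The makeup of the 9 also varied between libraries. Their levels summed to 2924 and 2605 FPKM in Ctrl, 1626 and 1051 in ApoE and 2313 and 2928 in CKD. Gsn supplied the largest share in all 6 libraries, from 31.26% in ApoE 1 to 51.96% in CKD 1. Ly6a supplied 4.87% and 5.2% of the sum in Ctrl and 5.01% and 5.64% in CKD, but 24.25% and 18.21% in ApoE. Dpep1 supplied 2.74% to 4.09% in the Ctrl and ApoE libraries, and 9.88% and 9.51% in CKD. Pi16 supplied 8.23% and 9.21% in Ctrl and 4.72% to 5.96% in the other 4 libraries.

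**Figure D3:**
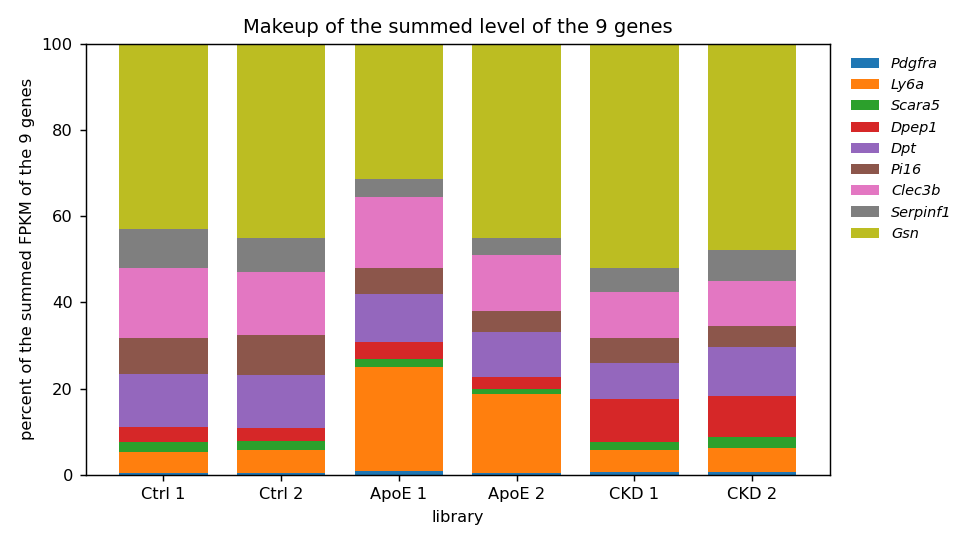
Percent of the summed FPKM of the 9 genes supplied by each gene (vertical axis) in each of the 6 libraries (bars). The Ly6a segment is widest in ApoE, at 24.25% and 18.21%, and the Dpep1 segment in CKD, at 9.88% and 9.51%.

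Ratios to Pdgfra, which compare levels per exon length within a library, separated some members from the fibroblast receptor itself. The Ly6a to Pdgfra ratio was 9.79 and 9.944 in Ctrl, 31.11 and 37.57 in ApoE and 7.104 and 8.389 in CKD. For Dpep1 the ratio was 7.006 and 5.59 in Ctrl, 5.249 and 5.652 in ApoE and 14.01 and 14.15 in CKD. The Pi16 to Pdgfra ratio was 16.55 and 17.61 in Ctrl, 7.647 and 9.735 in ApoE and 8.149 and 7.368 in CKD. The ratios of Dpt, Clec3b, Scara5 and Serpinf1 to Pdgfra were, like that of Pi16, below both Ctrl libraries in all 4 ApoE and CKD libraries. The Gsn ratio was not, at 86.27 and 85.9 in Ctrl, 40.11 and 92.92 in ApoE and 73.71 and 71.14 in CKD. Pdgfra itself was lower in both ApoE libraries, at 12.68 and 5.093 FPKM, than in both Ctrl libraries, which raises the ApoE ratios, most in ApoE 2. It was higher in both CKD libraries than in both Ctrl libraries, which lowers the CKD ratios. Serpinf1, for example, had ratios of 18.32 and 15.05 in Ctrl, 5.397 and 8.062 in ApoE and 7.867 and 10.53 in CKD. The Dpep1 ratio was above both Ctrl libraries in CKD alone. These ratios were chosen after the values were seen and carry no test.

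Libraries of the same group also differed, and the members moved together in them. All 9 genes were higher in ApoE 1 than in ApoE 2, with ratios from 1.074 for Gsn to 2.489 for Pdgfra and a median of 1.955, where 66.1% of all tested genes were higher in ApoE 1. In CKD all 9 were higher in CKD 2 than in CKD 1, by 1.092-fold for Pi16 to 1.707-fold for Dpt, where 45.4% of all genes were higher in CKD 1. In Ctrl all 9 were higher in Ctrl 1, by 1.003-fold for Pi16 to 1.337-fold for Dpep1, where 49.2% of all genes were higher in Ctrl 1. Over recovered reads, the chi-square per degree of freedom between the libraries of a group was 17.9 in Ctrl, 39.6 in ApoE and 68.5 in CKD, so no library was a copy of another.

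Across the 6 libraries Scara5 followed the mean of the other 8 members most closely, with a Pearson r of 0.99, and Dpt and Serpinf1 followed with 0.94. Pdgfra had an r of 0.91, Pi16 and Clec3b 0.89, Gsn 0.84 and Dpep1 0.69, and Ly6a ran the other way at -0.49. These values describe 6 libraries in 3 groups, which share depth and tissue composition within a library. The 5 other genes most like the mean profile of the 9 were C1qtnf7, Smoc2, Fhl2, Naalad2 and Ier3, with r from 0.990 to 0.997 over 6 libraries, among 7444 genes of which 7.98% exceeded 0.9. Smoc2, a secreted calcium-binding matrix protein that is also on the list of other fibroblast markers, stood at 174.1 and 146.6 FPKM in Ctrl, 99.22 and 36.27 in ApoE and 125.9 and 181.5 in CKD.

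The wider fibroblast programme was described with lists that had no member in common with the 9. Of 24 other fibroblast markers, 8 fell and 0 rose in ApoE against Ctrl, with a median of -0.64, where 24.3% of all genes were called lower and 19.8% higher. The fall was not uniform. Lum (0.50), Thy1 (0.54) and Efemp1 (1.03) were higher in both ApoE libraries than in both Ctrl libraries and were not called. Cd248, Anxa3, Medag and Ebf2 were among the markers whose ApoE and Ctrl libraries overlapped. Sema3c, a secreted guidance cue, went from 38.06 ± 0.111 FPKM in Ctrl to 4.076 ± 2.30 in ApoE (SD, n = 2 each; limma adjusted p = 0.00157). Col15a1, a collagen of basement membranes, fell by 2.80 on the log2 scale (limma adjusted p = 0.000521), and its exons overlap a gene on the other strand. Pcolce2, an enhancer of procollagen processing, fell by 2.30 (limma adjusted p = 0.00143), and Mfap5, a microfibril protein, by 2.13 (limma adjusted p = 0.00125). In CKD against Ctrl 0 of the 24 passed the test (limma), 6 had an unadjusted p below 0.05, and the median was -0.22. Dcn (decorin), the most abundant of them, stood at 395.6 ± 106 FPKM in CKD and 385.3 ± 74.4 in Ctrl. Fstl1, a secreted glycoprotein and the next in abundance, differed by -0.91 (limma adjusted p = 0.0907). ApoE against CKD gave 8 lower and 0 higher, again with Col15a1 (-2.51) and Mfap5 (-1.74) among those with the smallest adjusted p. Igfbp6, a binding protein of insulin-like growth factors, was lower by 1.94 in that contrast (limma adjusted p = 0.00417), and Lama2, a laminin chain whose exons overlap another gene, by 1.95 (adjusted p = 0.00458).

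Collagens and their processing enzymes, the main matrix output of fibroblasts, fell in 11 of 12 in ApoE, with a median of -1.46, and in 4 of 12 in CKD, with a median of -1.12. Over all genes 24.3% were called lower in ApoE and 3.21% in CKD. Which cells of the aorta supplied these collagen transcripts was not tested. Col1a1, a chain of type I collagen, fell by 1.91 in CKD (limma adjusted p = 0.0364), from 415.9 ± 35.0 FPKM in Ctrl to 115.2 ± 48.3. The type VI chains Col6a1 and Col6a2 fell by 1.11 and 1.12 in CKD and by 2.24 and 2.50 in ApoE. Col1a2, the other chain of type I collagen, fell from 364.3 ± 17.2 to 85.1 ± 17.5 FPKM in ApoE (SD, n = 2 each; limma adjusted p = 0.00465). Col5a1, a type V chain, fell by 1.34 in ApoE, and its exons overlap other genes. P4ha1, a prolyl hydroxylase of collagen, fell by 1.51 in CKD. The CKD calls were fragile, since without Ctrl 1 or without Ctrl 2 limma called 0 genes of any kind in CKD against Ctrl, and with only the 4 libraries of that comparison it called 3. Against CKD, ApoE was lower in 4 of the 12. In CKD against Ctrl 0 of the 9 adventitial fibroblast genes and 4 of the 12 collagen genes were called, beside 5.44% of all genes. With so small a share over all genes, 0 of 9 says little about the 9 genes. Whether the shares of the 2 lists differ was not tested.

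Genes of activated fibroblasts moved both ways in ApoE, with 2 of 9 tested genes higher and 4 lower than in Ctrl. Of the 2 that were higher, Cthrc1 passed the filter on low values only through the ApoE libraries, so its call carries little weight. Postn (periostin), a matrix protein of healing tissue, fell by 3.43 (limma adjusted p = 0.00102), from 304.4 ± 22.8 FPKM to 27.66 ± 6.14. Col8a1, a short-chain collagen that smooth muscle and endothelial cells also make, rose by 3.15 (limma adjusted p = 0.00198), from 4.23 ± 1.19 FPKM to 45.23 ± 9.04. Tnc (tenascin C) and Comp, matrix glycoproteins, fell by 1.33 and 1.54 (limma adjusted p = 0.00801 and 0.0212); exons of Tnc overlap another gene. In CKD 0 of 9 passed (limma), and 3 had an unadjusted p below 0.05. Fn1 (fibronectin) stood at 240 ± 112 FPKM in CKD and 232.1 ± 3.68 in Ctrl, and Postn differed by -0.79 (limma adjusted p = 0.184). Against CKD, ApoE was lower in Postn (-2.63) and Comp (-2.54) and higher in Col8a1 (2.63).

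Cytokine and complement genes known from fibroblasts rose in ApoE in 5 of 11 tested and fell in 0, with a median of 1.12. Cxcl14 went from 0.196 ± 0.184 FPKM in Ctrl to 11.29 ± 1.51 in ApoE (limma adjusted p = 0.00019) and to 2.722 ± 0.125 in CKD (adjusted p = 0.0201). Ccl2, a monocyte chemokine that macrophages also make, rose by 3.83 in ApoE (limma adjusted p = 0.00773), with a wide spread of 42.78 ± 33.1 FPKM. Cxcl1, a neutrophil chemokine, rose from 1.067 ± 0.712 to 8.491 ± 3.23 FPKM in ApoE (limma adjusted p = 0.0037). The complement gene C4b rose by 2.35 in ApoE and by 2.02 in CKD (limma adjusted p = 0.0028 and 0.0348); a near-identical copy makes its value uncertain. With Cxcl14, C4b made up the 2 of 11 that rose in CKD.

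Among the PDGF genes, Pdgfb, the ligand that platelets, macrophages and endothelium supply, rose in ApoE from 5.971 ± 2.68 to 33.5 ± 2.04 FPKM (limma adjusted p = 0.00213). Pdgfrb, the receptor of mural cells, fell by 1.23 (limma adjusted p = 0.00281), and Pdgfd, a ligand of that receptor, fell by 1.96 (adjusted p = 0.00379). Pdgfa, the ligand that acts through Pdgfra, stood at 24.26 ± 2.16 FPKM in ApoE and 24.53 ± 2.48 in Ctrl, with a 95% interval of -0.39 to 0.37 for the difference. In CKD 0 of the 5 PDGF genes passed (limma), and 3 had an unadjusted p below 0.05.

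Of 13 relatives of the members that were tested, 5 were higher and 4 lower in ApoE than in Ctrl, where 19.8% and 24.3% of all genes were called. Capg, a gelsolin relative that caps actin filaments and is made by macrophages, rose by 3.32 (limma adjusted p = 0.000272), from 17.75 ± 0.201 to 186.4 ± 24.9 FPKM, while Gsn itself fell. Dpep2, a dipeptidase of the Dpep1 family, rose by 2.74 (limma adjusted p = 0.000896), and it shares exons with other annotated genes. Svil, another gelsolin relative, fell by 1.49 (adjusted p = 0.00191), and Crispld2, which like Pi16 belongs to the CAP family, fell by 2.58 (adjusted p = 0.00542). Ly6c2 lay near the floor, at 1.626 and 1.62 FPKM in ApoE and 0.07405 and 0.2527 in CKD. It passed the filter on low values only through the ApoE libraries, so its call as higher there against CKD carries little weight. In CKD against Ctrl 0 of 13 passed (limma), and 4 had an unadjusted p below 0.05. The 2 most abundant, both serpins like Serpinf1, differed by 0.43 (Serping1, limma adjusted p = 0.548) and -1.50 (Serpinh1, a collagen chaperone, adjusted p = 0.0505).

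**Figure D4:**
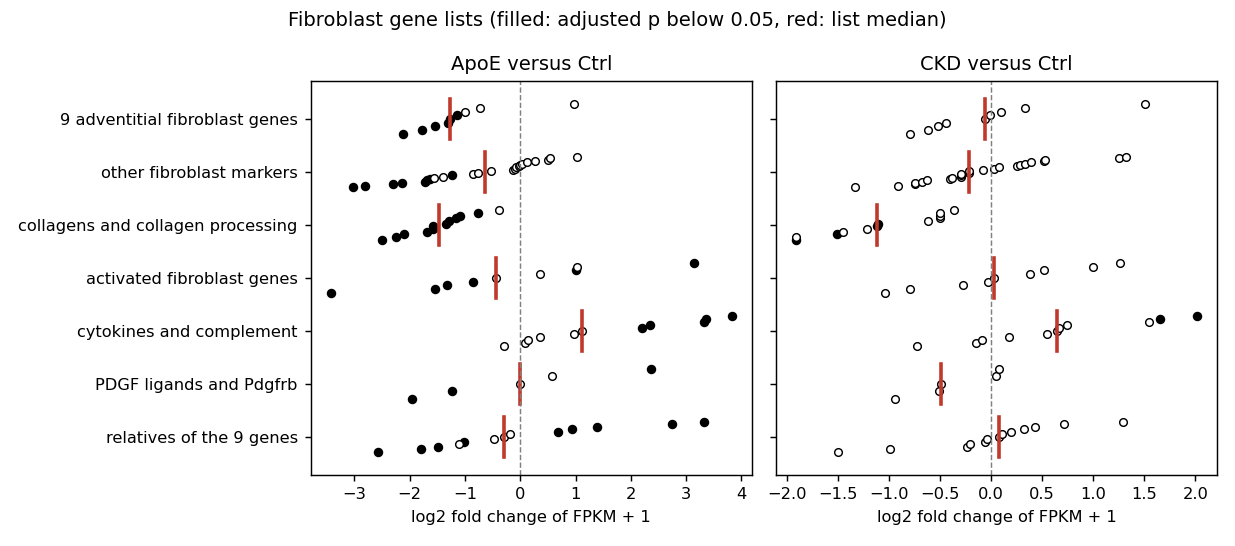
Differences on the log2(FPKM + 1) scale (horizontal axes, not the same range) of the genes of 7 lists in ApoE versus Ctrl and CKD versus Ctrl. Each point is a gene, filled where the adjusted p is below 0.05, and red bars are list medians. For ApoE the collagen median is -1.46 and the cytokine and complement median 1.12, and for CKD the 9 adventitial genes have a median of -0.06 with 0 filled.

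Markers of other cell types also differed between the groups. Over all genes 44.1% were called in ApoE against Ctrl and 5.44% in CKD against Ctrl. Against Ctrl 8 of 8 smooth muscle markers fell in ApoE and 2 of 8 in CKD, where 7 of 8 had an unadjusted p below 0.05 (limma). Their sum was 566.1 and 647 FPKM in ApoE, beside 7488 and 8355 in Ctrl and 3428 and 5940 in CKD. Macrophage markers rose in 6 of 8 in ApoE and in 3 of 8 in CKD, where 6 of 8 had an unadjusted p below 0.05 (limma). Their sum was 540.8 and 585.5 in Ctrl, 6858 and 1.04e+04 in ApoE and 1170 and 1833 in CKD. White adipocyte markers rose in 6 of 8 in ApoE and in 1 of 8 in CKD, with sums of 404.4 and 1012 in Ctrl, 3038 and 3241 in ApoE and 2582 and 7736 in CKD. An unadjusted p below 0.05 (limma) was reached by 8 of 8 in both comparisons, with medians of 2.33 in ApoE and 2.64 in CKD. No marker of these 3 lists was at 0 in any library. White adipocyte sums of Ctrl and ApoE did not overlap, so a fit with that level as a covariate cannot separate it from group. In that fit 0 of the 9 genes were called in ApoE against Ctrl (limma), with 4 at an unadjusted p below 0.05. Of all 14074 genes, 1800 were called in it. The differences then stood at -1.54 for Pi16, -1.15 for Serpinf1, -1.02 for Gsn, -0.66 for Scara5, -0.54 for Clec3b and -0.38 for Dpt, all nearer to 0 than without the covariate, and Ly6a stood at 1.62 (adjusted p = 0.166).

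Mesothelial markers, of the lining cells outside the vessel, rose in 6 of 6 tested in CKD and in 4 of 6 in ApoE. Lrrn4 and Upk1b passed the filter on low values only through the CKD libraries, so their calls carry little weight. The mesothelial list summed to 1.634 and 2.629 FPKM in Ctrl, 7.643 and 12.17 in ApoE and 55.29 and 69.89 in CKD. Wt1 was at 0 in both Ctrl libraries, and Upk1b and Muc16 were at 0 in Ctrl 1. Pericyte markers fell in 3 of 6 and rose in 1 of 6 in ApoE, with sums of 88.25 and 143.8 beside 393.9 and 394 in Ctrl. The pericyte marker that rose, Higd1b, passed the filter only through the ApoE libraries, so its call carries little weight. In CKD 0 of 6 pericyte markers passed (limma), with 3 at an unadjusted p below 0.05 and sums of 237.8 and 288.9. Cardiomyocyte markers summed to 5.574 and 5.944 FPKM in Ctrl, 9.406 and 9.609 in ApoE and 25.79 and 32.43 in CKD, and brown adipocyte markers to 72.83 and 175.9, 434.1 and 483.2, and 308.1 and 934.5. Of 5 cardiomyocyte markers tested, 2 rose and 1 fell in ApoE and 3 rose in CKD. Of 5 brown adipocyte markers, 0 passed in ApoE (limma), with 2 at an unadjusted p below 0.05, and 1, Ppargc1a, rose in CKD. Ppargc1a passed the filter on low values only through the CKD libraries, so that call carries little weight. T and B cell markers summed to 4.871 and 26.88 in Ctrl, with Ctrl 2 far above the rest of its group, to 8.367 and 15.74 in ApoE and to 2.182 and 1.811 in CKD, and 0 of 5 tested passed in ApoE or CKD against Ctrl (limma), with 0 and 2 at an unadjusted p below 0.05. Schwann cell markers summed to 3.088 to 8.762 and skeletal muscle markers to 6.426 to 11.43 over the 6 libraries. In ApoE 1 of 4 Schwann cell markers tested, Mbp, rose, and 2 of 4 skeletal muscle markers, Tnnt3 and Ckm, fell. Ckm passed the filter only through the Ctrl libraries, so its call carries little weight. Endothelial markers, of a cell type that also makes Ly6a, rose in 4 of 8 and fell in 1 of 8 in ApoE against Ctrl, with a median of 0.50. Those that rose were Kdr (1.62), Emcn (1.49), Cdh5 (0.94) and Esam (0.51). Pecam1 was the marker that fell, by 0.93 (limma adjusted p = 0.0402), from a mean of 204.6 FPKM in Ctrl to 106.8 in ApoE. The sum of the list, to which Pecam1 gave the most, was 320.7 and 380.2 in Ctrl, 311 and 312.8 in ApoE and 194.2 and 303 in CKD. In CKD 0 of 8 endothelial markers passed (limma), with 4 at an unadjusted p below 0.05. The part of these cell types and of the mitochondrial share in the levels of the 9 genes, and of the other fibroblast lists, was not tested. The adipocyte covariate cannot separate such a part from the group.

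**Figure D5:**
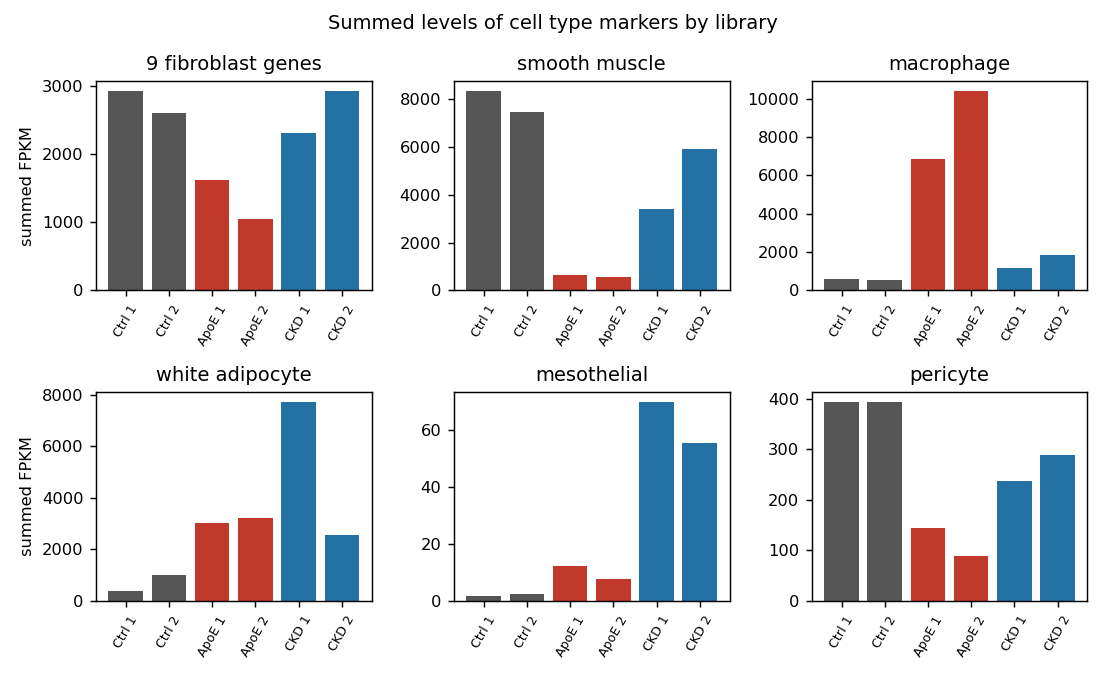
Summed FPKM (vertical axes, each from 0) of the 9 genes and of 5 marker lists of other cell types in each of the 6 libraries (bars). Smooth muscle sums are lowest in ApoE, macrophage sums highest in ApoE, at 6858 and 1.04e+04, and the adipocyte sum is highest in CKD 1, at 7736.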

How the data were processed

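Aortic RNA of 6 libraries was prepared with a polyadenylation-selecting kit that does not mark strand, per the labels' protocols. The deposited values were taken as FPKM from the values themselves, since no header names a unit. In 5 files the deposited identifiers and values are stacked in 1 column. TopHat2, HISAT2 2.1.0, Bowtie2 2.2.3 and build GRCm38 are named without roles, per the submitters' processing notes; the counter is not given in the sources used here. Multiplied by GENCODE M21 exon length, 89.5% to 89.9% of values were whole reads within 0.05, which gave the depths.

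Symbols were matched for 27730 of 27815 identifiers. Genes reaching 1 FPKM in 2 or more libraries (14074) were tested as log2(FPKM + 1), which understates changes of low genes, in 1 model of group means (limma 3.58.1, R 4.3.3, variance trend and robust spread), with Benjamini-Hochberg adjusted p below 0.05. Members and lists were chosen with earlier results of these data known. All members are named, and from each other list up to 4 called genes with the smallest adjusted p, or else the 2 most abundant; some further list genes are named for background and were chosen after their values were seen. On simulated data, the fit called 35%, 38% and 47% of 100 genes changed 2-fold (ApoE versus Ctrl, CKD versus Ctrl, ApoE versus CKD), and 80%, 84% and 79% at 4-fold. The 16 alternatives vary scaling, pseudocount, filter, libraries, the variance model, a replicate block and an adipocyte covariate.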

Additional observations from a re-analysis of the deposited data

Results flagged for a closer look

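The changes in the 2 models differed from each other, by limma's direct contrast of ApoE with CKD, for 4 of the 9 genes, where 39.7% of all tested genes were called. Dpep1 had a log2 difference of -2.50 between ApoE and CKD, from -0.99 in ApoE and 1.51 in CKD against Ctrl. Gsn had -1.40, from -1.30 and 0.10, Scara5 had -1.49, from -1.55 and -0.06, and Serpinf1 had -1.60, from -2.12 and -0.52. Dpep1 and Gsn were called in 16 of 16 alternatives for this contrast, Serpinf1 in 14 and Scara5 in 13.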

How the results depend on the processing

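Of the alternatives for single members, 389 kept direction and side of the threshold, 25 lost a call, 15 gained a call and 12 changed sign, all 12 in CKD versus Ctrl. In ApoE versus Ctrl the 6 members called became 3 with no filter on low values and 0 with the white adipocyte covariate, and 3 to 8 when a library was left out. Gsn, Pi16 and Serpinf1 were called in 15 of 16 alternatives, all but the covariate (adjusted p = 0.0702, 0.16 and 0.151 there). In ApoE versus CKD the 4 members became 2 to 6 when a library was left out. Genes called in ApoE versus Ctrl, 6208, became 3845 under a filter of a mean of 5 FPKM, which tests fewer genes, 1800 with the covariate, and 2992 to 7022 with a library left out. The 766 genes of CKD versus Ctrl became 1 with no filter, 417 with the mean filter, 3 with only the 4 libraries compared, 0 with the covariate and 0 to 2366 with a library left out. The 5592 of ApoE versus CKD became 3348 with the mean filter and 2559 to 4941 with a library left out. Signs changed in CKD versus Ctrl for Ly6a under median-ratio (0.02) and upper-quartile scaling (0.03), and under the covariate for Dpt (0.55), Ly6a (0.72), Clec3b (0.07), Scara5 (0.94) and Serpinf1 (0.57). With a library left out, Ly6a ran from -0.26 to 0.25, Scara5 from -0.39 to 0.26 and Gsn from -0.01 to 0.21. Where no construction is named, the cause was not tested.

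The labels do not say that replicate numbers pair libraries, and deviations of same-numbered libraries correlated at 0.046, -0.233 and -0.097 over genes (ApoE versus Ctrl, CKD versus Ctrl, ApoE versus CKD). With a replicate block, 4 members stayed called in ApoE versus Ctrl, with Dpt at an adjusted p of 0.0554 and Clec3b at 0.0528, 4 in ApoE versus CKD and 0 in CKD versus Ctrl, where 46 genes were called. A crossed replicate block, chosen after seeing the data, gave 2411 genes and 2 members in CKD versus Ctrl. With 2 libraries a group, their number rather than read depth limits precision.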
